A study of Mus musculus with 20 samples.

Results

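The 10 genes Atf4, Ddit3, Hspa5, Xbp1, Trib3, Asns, Chac1, Herpud1, Dnajb9 and Sdf2l1 belong to the unfolded protein response and the amino acid response. They were taken from a list of names, matched through their Ensembl identifiers to GENCODE M21 symbols, with no threshold on their values. They are 10 of the 46603 genes in the count files, and all 10 were among the 14661 genes that passed the filter on low counts.

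When unfolded protein builds up in the endoplasmic reticulum (ER), the chaperone encoded by Hspa5 leaves the sensors IRE1, PERK and ATF6. IRE1 splices the Xbp1 transcript into the form that encodes an active transcription factor, ATF6 is cut to release its own, and PERK phosphorylates the initiation factor eIF2. The kinase GCN2, which senses a shortage of amino acids, phosphorylates the same factor, and either route favours translation of Atf4, whose protein activates genes of amino acid supply and of stress signalling. Hepatocytes secrete most plasma proteins and carry a large ER, so these pathways are active in the resting liver.

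Poly(A) RNA of whole liver was sequenced from male mice aged 2 months, strain C57BL6/J in the labels, on standard chow. The wild-type mice (WT) were bought, and the EedHepKO mice (KO) carry the Alb:Cre transgene, which the albumin promoter drives in hepatocytes, and Eedflox alleles with loxP sites around exons 3 and 6. EED is a core subunit of polycomb repressive complex 2, which methylates histone H3 at lysine 27, and other liver cells keep the gene. Baseline tissue was lobes 1, 2 and 3, excised at partial hepatectomy (PHx), and later tissue was lobes 4, 5 and 6 at 30 h (1 mouse per genotype), 40 h (2 mice) and 48 h (2 mice). With 5 mice per genotype there were 4 groups of 5 libraries. Genotype cannot be told apart from colony of origin, nor the response to PHx from lobe. The labels name no group of sham surgery or of Cre alone.

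Libraries held 21634890 to 30461351 counts. Values are counts per 1000000 (CPM) of the library total scaled by the trimmed mean of M-values (TMM). Differences are log2 fold changes from edgeR's quasi-likelihood test with a standard error (SE), and a gene is called where its Benjamini-Hochberg adjusted p over all 14661 genes was under 0.05. Eed itself was 16.8 ± 1.09 CPM (SD, n = 5) in WT and 5.64 ± 1.44 CPM (SD, n = 5) in KO at baseline, and 18.4 ± 3.98 against 4.62 ± 1.13 CPM after PHx, with no overlap between genotypes. One library stood apart. KO replicate 10 after PHx had a median correlation of 0.776 with the other libraries of its group over 9541 genes, against 0.832 to 0.871 for those. Calls of the 10 genes that changed without it, and the counts of calls, are therefore also given without it. The 8 hepatocyte markers were detected in every group, with summed levels of 126184.9 to 148521.0 CPM in WT and 78342.4 to 115116.5 CPM in KO at baseline, and 79310.9 to 145567.2 against 51723.8 to 116580.8 CPM after PHx. Of these 8, 2 were called lower in KO at baseline and 1 after PHx. Of the markers of other cells, 5 of 8 macrophage genes, 4 of 7 stellate cell or fibroblast genes, 1 of 5 tested cholangiocyte genes, 2 of 4 neutrophil genes, 1 of 6 endothelial genes, 1 of 4 plasma cell genes and 0 of 3 B cell genes were called higher in KO at baseline, and 3, 3, 4, 0, 1, 0 and 0 after PHx, with none lower. The 1 tested of 8 pancreatic acinar genes was lower in KO at baseline (-1.91) and not called after PHx (-0.21). It fell in both responses (-2.37 in WT, -0.67 in KO). In each response 1 plasma cell gene rose and 3 fell, 2 B cell genes fell and 1 hepatocyte gene fell. In WT, 3 neutrophil and 2 macrophage genes rose, and 1 macrophage and 1 endothelial gene fell. In KO, 3 cholangiocyte, 1 neutrophil, 1 macrophage and 1 endothelial gene rose. There 3 macrophage, 2 stellate cell or fibroblast and 1 endothelial gene fell. In whole tissue, fewer cells of a type and less RNA per cell cannot be told apart, and the part of these markers in the results below was not tested.

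Levels of the 10 genes spanned 3 orders. Per kilobase of exon (RPKM), WT liver at baseline had 460.2 ± 153.3 for Hspa5, 262.1 ± 61.9 for Herpud1, 113.8 ± 15.9 for Xbp1, 76.0 ± 32.4 for Sdf2l1, 57.8 ± 24.4 for Atf4 and 54.1 ± 29.8 for Dnajb9 (SD, n = 5). The same measure was 3.19 ± 1.32 for Ddit3, 2.85 ± 2.53 for Trib3, 2.66 ± 2.02 for Chac1 and 0.417 ± 0.301 for Asns. In this order 2 steps had no overlap between libraries, that from Herpud1 to Xbp1 and that from Dnajb9 to Ddit3. All other neighbours overlapped. The resting liver thus held abundant transcripts of ER chaperones and of Xbp1, and the targets of ATF4 signalling in this list were near the bottom.

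**Figure D1:**
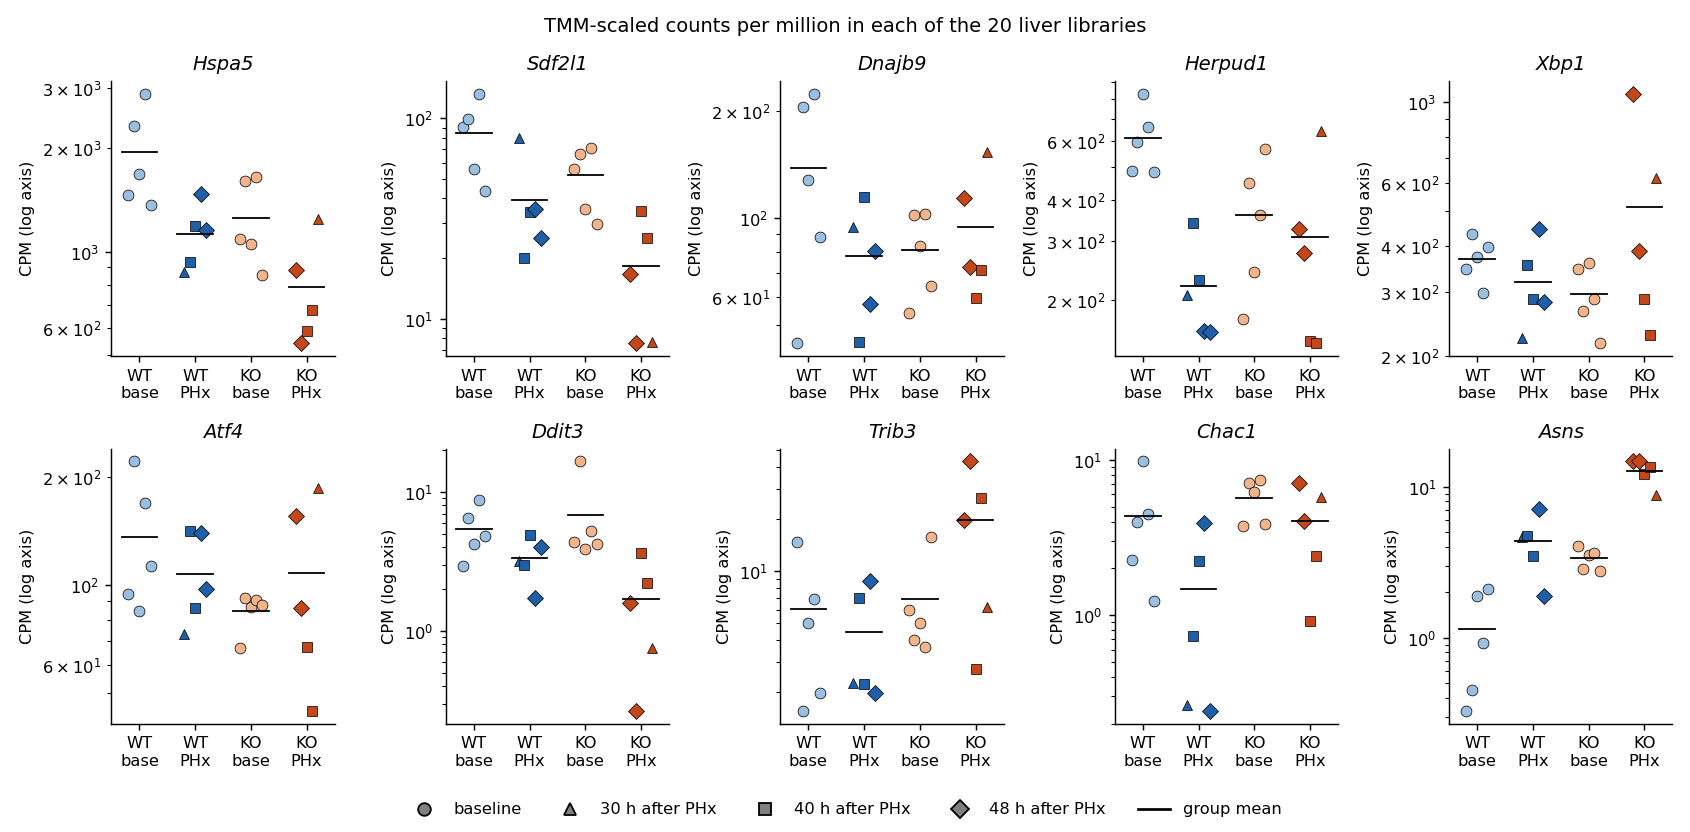
TMM-scaled CPM (log axis, a separate range per gene) of the 10 genes in each of the 20 libraries, by group, with marker shapes for hours after PHx and a black line at the group mean. By group mean, Asns is lowest in WT at baseline (0.325 to 2.11 CPM) and highest in KO after PHx (8.81 to 14.7 CPM). Its KO baseline libraries (2.77 to 4.02 CPM) lie within the range of WT after PHx (1.89 to 7.16 CPM). Herpud1 in WT drops from 483.1 CPM or more to 340.7 CPM or less, and Xbp1 and Trib3 spread most in KO after PHx.

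Values of single libraries follow the mouse number, 1 to 5 in WT and 7, 8, 10, 11 and 12 in KO. After PHx, mice 1 to 5 stand for 30, 40, 40, 48 and 48 h, and mice 7, 8, 10, 11 and 12 for 48, 48, 40, 40 and 30 h. The title of the WT baseline library listed as 1 gives no mouse number.

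Among the genes of ER folding, Hspa5 (ENSMUSG00000026864, mm10 chr2:34771970-34777547, plus strand) encodes BiP, the main Hsp70 chaperone of the ER. In WT it had 1461.5, 2331.1, 1683.7, 2889.7 and 1364.3 CPM at baseline and 869.5, 935.0, 1190.8, 1472.3 and 1153.4 CPM after PHx. In KO it had 1089.2, 1607.0, 1054.0, 1652.5 and 856.7 CPM at baseline and 883.8, 539.5, 587.7, 676.3 and 1241.4 CPM after PHx. It was lower after PHx in 4 of 4 numbered WT mice, where only the highest library after PHx (mouse 4) reached into the baseline range, and in 4 of 5 KO mice, the exception being mouse 12 at 30 h. The fall in WT was called, by 0.79 on the log2 scale (SE 0.27, edgeR adjusted p 0.0457). The call was held in 4 of 16 other settings, and lost when libraries were scaled by their totals alone (-0.44, edgeR adjusted p 0.211), and with the mouse as a block it was -0.76 (edgeR adjusted p 0.162). In KO the change was -0.67 (SE 0.27, edgeR adjusted p 0.0675) and not called. It was called in 1 of 16 other settings, without KO mouse 12 after PHx (-0.90, edgeR adjusted p 0.0199). Without KO mouse 10 after PHx it was -0.59 (edgeR adjusted p 0.11). KO against WT after PHx was -0.52 (SE 0.27, edgeR adjusted p 0.176) and not called. This difference was called in 1 of 16 other settings, without KO mouse 12 (-0.75, edgeR adjusted p 0.0468). Without KO mouse 10 it was -0.43 (edgeR adjusted p 0.252).

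Herpud1 (ENSMUSG00000031770, chr8:94386438-94395377, plus strand) encodes an ER membrane protein of the machinery that sends misfolded proteins to degradation (ERAD). Its values in WT were 487.0, 594.9, 832.7, 659.3 and 483.1 CPM at baseline and 207.0, 340.7, 228.6, 161.1 and 160.3 CPM after PHx. In WT, each library after PHx thus lay below each baseline library. The fall was by 1.48 on the log2 scale (SE 0.38, edgeR adjusted p 0.0103), was seen in 4 of 4 numbered mice, and was called in 16 of 16 other settings. In KO the gene had 174.8, 448.3, 243.1, 359.0 and 567.5 CPM at baseline and 326.8, 275.7, 150.2, 147.9 and 641.3 CPM after PHx. The KO groups overlapped almost wholly, with 3 of 5 mice lower and 2 of 5 higher after PHx, and the change was -0.22 (SE 0.37, edgeR adjusted p 0.677). The difference between the responses, KO minus WT, was 1.26 (SE 0.53, unadjusted p 0.0267, edgeR adjusted p 0.302) and not called.

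The promoters of these 2 genes hold textbook elements of the unfolded protein response, and they are shown because Hspa5 and Herpud1 are the members whose fall in WT was called in the fit of all libraries. The sequences are RefSeq's for GRCm38.p6, the 300 bases around the annotated start on the strand of the gene, with the matches in capitals.
Hspa5 promoter, GRCm38.p6 chr2:34771840-34772139, plus strand: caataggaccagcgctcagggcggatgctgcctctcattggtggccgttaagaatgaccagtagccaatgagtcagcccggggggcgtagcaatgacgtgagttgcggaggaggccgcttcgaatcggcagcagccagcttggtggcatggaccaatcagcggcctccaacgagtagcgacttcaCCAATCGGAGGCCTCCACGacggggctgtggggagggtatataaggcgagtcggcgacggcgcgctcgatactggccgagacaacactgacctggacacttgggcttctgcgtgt
Herpud1 promoter, GRCm38.p6 chr8:94386179-94386478, plus strand: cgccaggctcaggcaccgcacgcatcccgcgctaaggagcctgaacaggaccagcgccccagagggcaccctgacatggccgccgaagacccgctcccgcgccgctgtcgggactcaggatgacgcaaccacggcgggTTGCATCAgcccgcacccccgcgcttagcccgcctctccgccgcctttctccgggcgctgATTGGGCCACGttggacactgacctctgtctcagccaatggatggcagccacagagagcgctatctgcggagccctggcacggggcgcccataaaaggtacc
The capitals in Hspa5 are the ER stress element (ERSE, searched as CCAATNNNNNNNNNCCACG) at -65 to -47 from the start. Those in Herpud1 are, from the left, a reverse match to the C/EBP-ATF response element (CARE, searched as TGATGNAA) at -112 to -105 and the element ERSE-II (searched as ATTGGNCCACG) at -52 to -42, and the matches do not overlap. On both strands ERSE was in 0.119% of 32851 promoters of this length, ERSE-II in 0.0365% and CARE in 3.97%. The UPR element, searched as TGACGTGG, was in 0.676% of all promoters and in none of the 10. These are matches of letters and not measured binding sites.

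Sdf2l1 (ENSMUSG00000022769, chr16:17130138-17132383, minus strand) encodes a soluble ER protein that works with BiP and its cochaperones. In WT it had 90.1, 98.9, 55.6, 133.2 and 43.3 CPM at baseline and 79.5, 20.0, 34.1, 35.3 and 25.4 CPM after PHx. In KO it had 56.0, 66.8, 35.4, 71.4 and 29.7 CPM at baseline and 16.6, 7.51, 34.4, 25.3 and 7.67 CPM after PHx. The gene was lower after PHx in 4 of 4 numbered WT mice and 5 of 5 KO mice, while the group ranges overlapped in both genotypes, in WT through the library at 30 h and in KO through mouse 10, which moved least. The fall in KO was called, by 1.50 on the log2 scale (SE 0.45, edgeR adjusted p 0.0175), in 16 of 16 other settings as well, and was -1.86 without mouse 10 (edgeR adjusted p 0.00409). KO against WT after PHx was -1.09 (SE 0.44, edgeR adjusted p 0.0798) and not called. It was called in 1 of 16 other settings, without KO mouse 10 (-1.45, edgeR adjusted p 0.0187). In WT it was -1.12 (SE 0.44, edgeR adjusted p 0.0789) and not called, but it was called with the mouse as a block, which leaves out the unpaired library at 30 h (-1.42, edgeR adjusted p 0.0489). Leaving out only that library after PHx gave -1.55 (edgeR adjusted p 0.0173). These were the 2 of 16 other settings that called the fall in WT. At 30 h the WT and KO libraries differed, at 79.5 and 7.67 CPM, with 1 mouse each and no test.

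Dnajb9 (ENSMUSG00000014905, chr12:44205559-44210326, minus strand) encodes ERdj4, a J-domain cochaperone of BiP that also restrains IRE1. In WT it ran from 44.4 to 223.7 CPM (median 127.5) at baseline and from 44.8 to 114.6 CPM (median 80.5) after PHx. In KO it ran from 54.1 to 102.5 CPM (median 83.6) and from 59.4 to 153.1 CPM (median 72.7). All groups overlapped, and no comparison was called. It was lower after PHx in 4 of 4 numbered WT mice (-0.82, SE 0.37, edgeR adjusted p 0.126) and in 3 of 5 KO mice (0.21, SE 0.37, edgeR adjusted p 0.687). The change in WT was called in 1 of 16 other settings, without the unnumbered WT baseline library (-1.04, edgeR adjusted p 0.0402).

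Of the transcription factors, Xbp1 (ENSMUSG00000020484, chr11:5520659-5525893, plus strand) was counted as a gene, so spliced and unspliced transcripts are not separated. In WT it had 297.0 to 433.7 CPM at baseline and 224.0 to 445.5 CPM after PHx. In KO it had 347.1, 264.8, 359.9, 287.0 and 216.0 CPM at baseline and 1055.7, 387.4, 286.2, 227.5 and 617.4 CPM after PHx. Mice 7 (48 h) and 12 (30 h) lay above every other library, and mouse 8 lay within the WT range. The change in KO was 0.80 (SE 0.32, edgeR adjusted p 0.0614), not called, and it was called without mouse 10 (0.95, adjusted p 0.0223), without mouse 11 (0.97, adjusted p 0.0218) with library totals alone (1.01, adjusted p 0.0187) and by DESeq2 (0.81, adjusted p 0.042). Without mouse 7, the highest library, it was 0.39 (edgeR adjusted p 0.291), and with the mouse as a block 0.59 (edgeR adjusted p 0.197). KO against WT after PHx was 0.69 (SE 0.32, edgeR adjusted p 0.119), 0.84 without mouse 10 (edgeR adjusted p 0.0453), 0.85 without mouse 11 (edgeR adjusted p 0.0461), 1.04 with library totals alone (edgeR adjusted p 0.0171) and 0.29 without mouse 7 (edgeR adjusted p 0.475). The difference between the responses was 1.02 (SE 0.45, unadjusted p 0.0337, edgeR adjusted p 0.331).

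Atf4 (ENSMUSG00000042406, chr15:80255184-80257541, plus strand) encodes the transcription factor shared by the PERK and GCN2 branches, which is controlled mainly in translation. In WT it had 84.5 to 220.9 CPM (median 113.0) at baseline and 73.0 to 141.1 CPM (median 97.4) after PHx. In KO the baseline libraries were close together, at 66.6 to 92.1 CPM (median 88.1), and those after PHx lay from 44.5 to 185.9 CPM (median 86.5). No comparison of Atf4 was called, and KO against WT after PHx was 0.006 (SE 0.33, edgeR adjusted p 0.992), a value whose sign changed with the setting.

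Ddit3 (ENSMUSG00000025408, chr10:127290774-127296288, plus strand) encodes CHOP, a C/EBP family factor tied to cell death in prolonged ER stress. Its exons share 68 bases with Mars and 13 bases with Gm4189 on the other strand, whose reads cannot be separated where strand is not given. Mars was itself called lower in KO than in WT after PHx, and fell in the response of KO. The part of its reads in the Ddit3 counts was not tested. A second Ddit3 model on the same strand, which shares 105 bases, was not analysed here. In KO it had 4.38, 16.6, 3.90, 5.28 and 4.23 CPM at baseline and 1.59, 0.264, 3.62, 2.20 and 0.757 CPM after PHx. Each KO library after PHx lay below each KO baseline library, and all 5 mice fell. The change was -2.03 (SE 0.55, edgeR adjusted p 0.0117). It was called in 14 of 16 other settings, and not without baseline mouse 8, the highest library (-1.40, edgeR adjusted p 0.0505), nor with the mouse as a block (-2.01, edgeR adjusted p 0.0643). In WT it had 2.93, 6.50, 4.22, 8.81 and 4.86 CPM at baseline and 3.18, 3.00, 4.87, 1.74 and 4.02 CPM after PHx. These groups overlapped, the change was -0.70 (SE 0.54, edgeR adjusted p 0.38), and the difference between the responses, at -1.33 (SE 0.77, edgeR adjusted p 0.463), was not called. KO against WT after PHx was -1.0 (SE 0.54, edgeR adjusted p 0.191) and not called. It was called in 1 of 16 other settings, without KO mouse 10 (-1.48, edgeR adjusted p 0.0445).

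**Figure D2:**
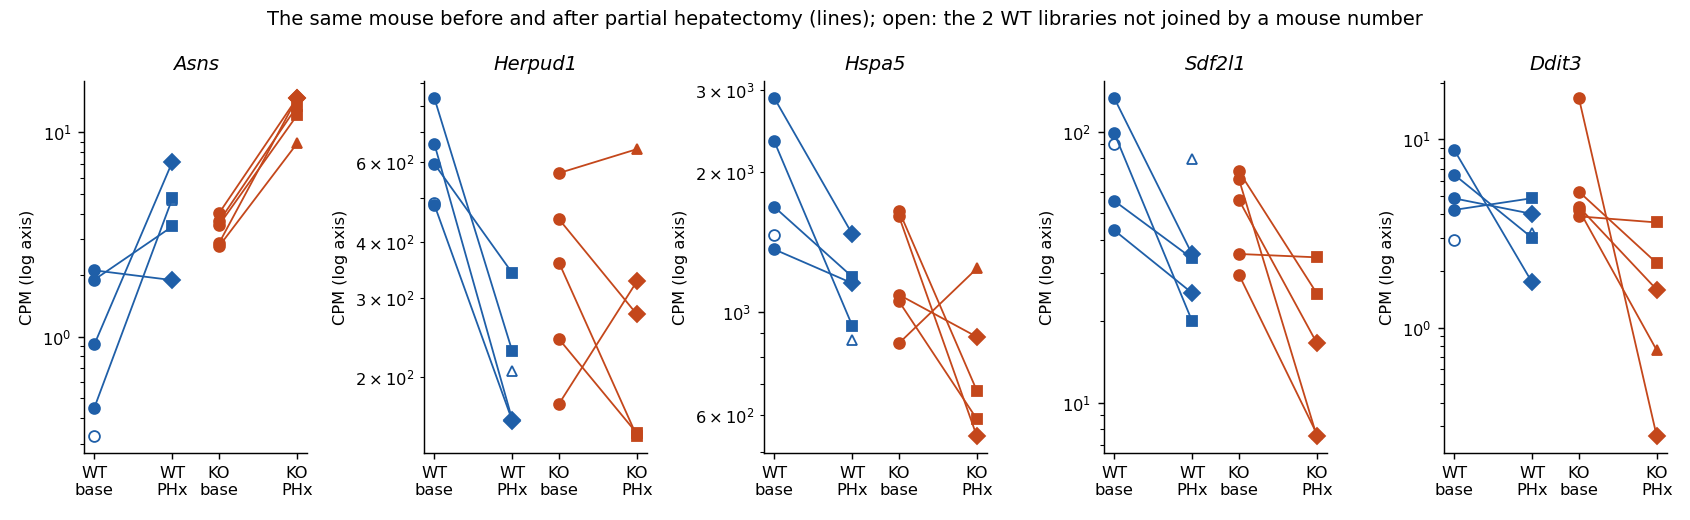
CPM (log axis) of 5 genes at baseline and after PHx, WT in blue and KO in orange, with a line for each of the 9 numbered mice, circles for baseline, triangles for 30 h, squares for 40 h, diamonds for 48 h, and open markers for the unpaired WT libraries. Asns rises in 5 of 5 KO mice, Herpud1 falls in 4 of 4 WT mice, Sdf2l1 falls in all 9 numbered mice and Ddit3 in 5 of 5 KO mice.

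Trib3 (ENSMUSG00000032715, chr2:152337422-152344032, minus strand) encodes a pseudokinase that ATF4 and CHOP induce and that inhibits ATF4 and Akt. After PHx it had 2.27, 7.05, 2.24, 8.83 and 1.99 CPM in WT and 19.7, 43.2, 2.71, 26.4 and 6.20 CPM in KO. Mice 7, 8 and 11 lay above all WT libraries, and mice 10 and 12 lay within the WT range. KO was higher by 2.14 on the log2 scale (SE 0.71, edgeR adjusted p 0.0349). The call was held in 10 of 16 other settings and lost without WT mouse 1, 3 or 5 or KO mouse 8 or 11, with adjusted p up to 0.121, and with only these 10 libraries in the fit (edgeR adjusted p 0.0872). Without KO mouse 10 the value was 2.41 (edgeR adjusted p 0.00999). At baseline, WT libraries ran from 1.55 to 14.8 CPM and KO libraries from 3.66 to 15.8 CPM, and the difference of 0.19 (SE 0.69, edgeR adjusted p 0.885) changed sign with single libraries left out. The change in KO after PHx was 1.52 (SE 0.70, edgeR adjusted p 0.104), higher in 3 of 5 mice, 1.80 without mouse 10 (edgeR adjusted p 0.037), 1.95 with library totals alone (edgeR adjusted p 0.0419), 0.98 without mouse 8 (edgeR adjusted p 0.314) and 1.21 with the mouse as a block (edgeR adjusted p 0.269).

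Chac1 (ENSMUSG00000027313, chr2:119351229-119354381, plus strand) encodes a glutathione-degrading enzyme downstream of ATF4. In WT it had 1.24 to 9.78 CPM (median 4.00) at baseline and 0.24 to 3.93 CPM (median 0.739) after PHx, and all 4 numbered mice were lower. In KO it had 3.75 to 7.44 CPM (median 6.21) and 0.915 to 7.13 CPM (median 4.06). None of its comparisons was called. The change in WT was -1.55 (SE 0.69, edgeR adjusted p 0.118) and KO against WT after PHx was 1.44 (SE 0.68, edgeR adjusted p 0.133). Each was called in 1 of 16 other settings, without WT mouse 4 after PHx, the highest of its group. The values were then -2.25 (edgeR adjusted p 0.0351) and 2.19 (edgeR adjusted p 0.0292).

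Asns (ENSMUSG00000029752, chr6:7675169-7693254, minus strand) encodes asparagine synthetase, the classical target of the amino acid response. WT libraries had 0.325, 0.45, 1.90, 0.917 and 2.11 CPM at baseline and 4.67, 4.74, 3.46, 7.16 and 1.89 CPM after PHx. KO libraries had 4.02, 2.87, 3.52, 3.66 and 2.77 CPM at baseline and 14.7, 14.7, 12.1, 13.4 and 8.81 CPM after PHx. The lowest WT baseline libraries, at 0.325 and 0.45 CPM, rest on few reads. KO lay above WT without overlap at both stages, and KO after PHx lay above every other library. Only WT mouse 5, which gave 2.11 CPM before and 1.89 CPM at 48 h, did not increase among the 9 numbered mice.

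The baseline difference of Asns between genotypes was 1.55 (SE 0.42, edgeR adjusted p 0.015), or 2.95 times by the group means. That after PHx was 1.54 (SE 0.40, edgeR adjusted p 0.00851), or 2.91 times. Per kilobase KO liver after PHx reached 4.66 ± 0.902 RPKM (SD, n = 5). These calls were kept in 15 of 15 and 16 of 16 other settings. KO was higher within each time as well, at 8.81 against 4.67 CPM at 30 h, 12.1 and 13.4 against 4.74 and 3.46 CPM at 40 h, and 14.7 and 14.7 against 7.16 and 1.89 CPM at 48 h. After PHx the gene rose by 1.93 in WT (SE 0.42, edgeR adjusted p 0.0039) and by 1.92 in KO (SE 0.41, edgeR adjusted p 0.00296). With the mouse as a block the rise in WT was 1.71 and no longer called (edgeR adjusted p 0.0572), while that in KO was kept in 16 of 16 settings. The difference between the responses was -0.006 (SE 0.58, edgeR adjusted p 1.0), and its sign changed with single libraries left out. The Asns comparisons share groups, and so are not independent of each other.

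The Asns promoter is shown because Asns is the member called in 4 of the 5 contrasts. It is RefSeq's for GRCm38.p6, over the same window and on the strand of the gene.
Asns promoter, GRCm38.p6 chr6:7693160-7693459, minus strand: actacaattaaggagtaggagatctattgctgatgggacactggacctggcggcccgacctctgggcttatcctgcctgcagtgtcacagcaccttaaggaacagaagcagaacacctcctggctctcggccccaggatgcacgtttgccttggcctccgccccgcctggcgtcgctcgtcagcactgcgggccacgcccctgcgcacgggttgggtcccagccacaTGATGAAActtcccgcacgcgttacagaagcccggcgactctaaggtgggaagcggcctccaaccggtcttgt
The capitals mark a forward match to CARE at -23 to -16 from the start. Reverse matches lay at -193 to -186 in Chac1 and at 15 to 22 after RefSeq's start in Trib3. For Trib3, Herpud1 and Xbp1 the first transcribed bases by RefSeq were in no GENCODE transcript of the gene. The match in Trib3 lies before the start of the GENCODE gene that was counted. With Herpud1, 4 of the 10 promoters held CARE, and Atf4, Ddit3, Xbp1, Dnajb9 and Sdf2l1 held none of the 4 motifs in this window.

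Apart from Asns, the baseline comparison of the genotypes gave no call. Hspa5 (-0.64, SE 0.27, edgeR adjusted p 0.118), Herpud1 (-0.77, SE 0.37, edgeR adjusted p 0.169), Dnajb9 (-0.76, SE 0.37, edgeR adjusted p 0.171), Sdf2l1 (-0.70, SE 0.44, edgeR adjusted p 0.293) and Atf4 (-0.68, SE 0.33, edgeR adjusted p 0.172) had lower group means in KO. With only the baseline libraries in the fit, Atf4 (-0.66, edgeR adjusted p 0.038) and Herpud1 (-0.74, edgeR adjusted p 0.0466) were called. This was the 1 of 15 other settings that called either gene.

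Counted over the list, 1 of 10 genes was higher and 0 of 10 lower in KO at baseline, where 11.1% and 4.89% of all tested genes were called higher and lower. After PHx 2 of 10 were higher and 0 lower in KO, beside 16% and 8.20% of all genes. Without KO mouse 10 these counts were 3 higher and 2 lower, beside 19.9% and 14.4%. The response to PHx in WT held 1 higher and 2 lower, beside 11.4% and 8.68%, and the response in KO also held 1 higher and 2 lower, beside 17.5% and 12.1%. Without KO mouse 10 the response in KO held 3 higher and 2 lower, beside 22.8% and 17.6%. These shares are near the background for so short a list. The members' median log2 fold change was -0.48 and 0.38 for KO against WT at baseline and after PHx, and -0.75 and -0.004 for the responses in WT and KO, where all genes had -0.028, -0.011, 0.043 and 0.10.

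For the difference between the responses, 0 of 10 genes were called by edgeR and 0 by DESeq2, and 2 of 10 (Xbp1 and Herpud1) had an unadjusted p under 0.05, beside 13.3% of all genes. Of all genes 0.164% were called higher and 0.225% lower in this contrast. The responses of WT and KO shared no control samples, but each shares its libraries with the genotype comparisons.

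**Figure D3:**
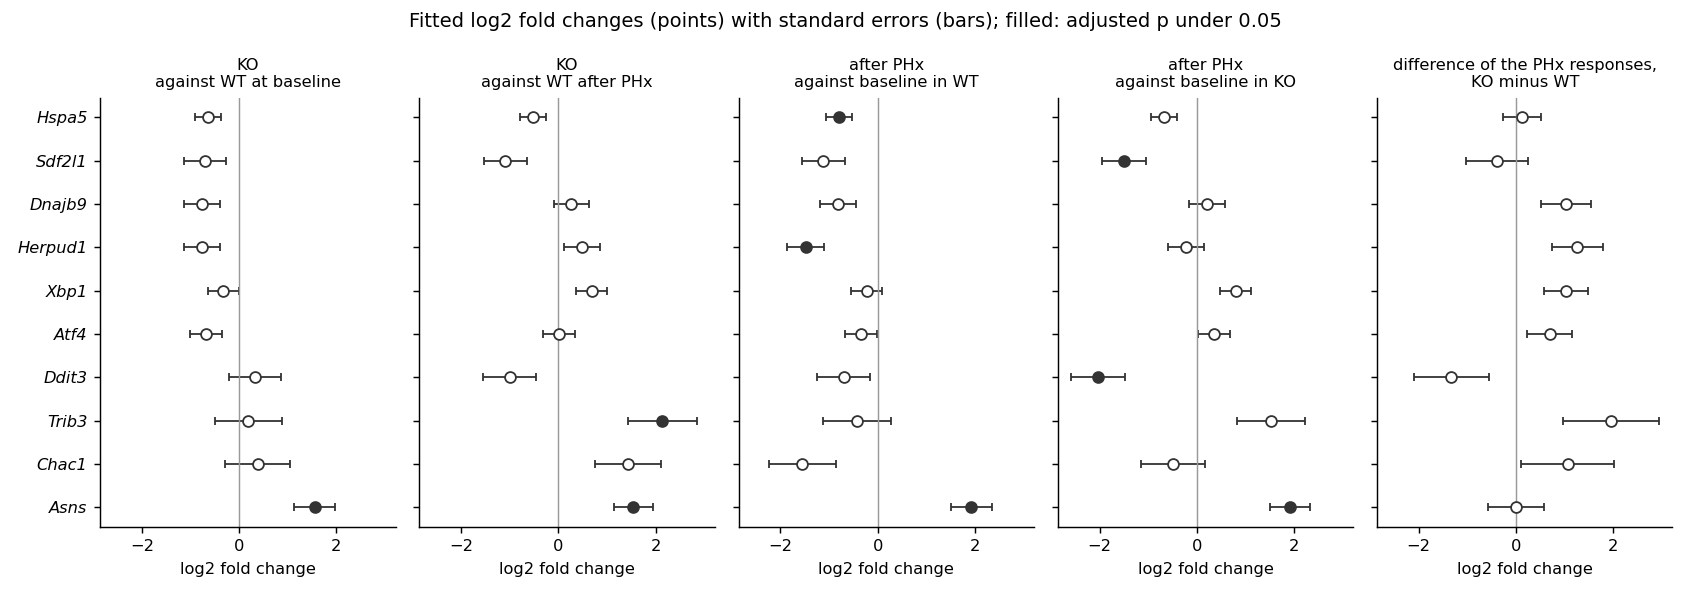
Log2 fold changes of the 10 genes (points) with SE (bars) in the 5 contrasts, filled where the edgeR adjusted p was under 0.05. Asns is filled and right of 0 in 4 contrasts, Herpud1 and Hspa5 are filled in the response of WT and Sdf2l1 and Ddit3 in that of KO, and no point is filled in the difference of the responses.

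Within KO after PHx the same mice stood out for several genes. Mice 7 (48 h) and 12 (30 h) held the 2 highest values for 6 of the 10 genes, which were Atf4, Chac1, Dnajb9, Herpud1, Hspa5 and Xbp1. Ddit3 and Sdf2l1 were highest in mice 10 and 11, and Trib3 in mice 8 and 11. The summed hepatocyte markers were also highest in mice 12 and 7, at 116580.8 and 80048.0 CPM, against 51723.8 to 71290.8 CPM in the others, and the summed macrophage markers were lowest there, at 185.7 and 122.1 CPM against 298.9 to 334.4 CPM. The part of these markers in the spread was not tested. Plasma cells rely on XBP1 for secretion. Of their markers, Tnfrsf17 was at 0 in all libraries, and Jchain, Mzb1, Ighm and Igkc in KO after PHx reached at most 2.98 CPM. At baseline Ighm reached 14.6 CPM in WT and Igkc 8.22 CPM in KO. Sdc1, the remaining gene of that list, was at 681.2 ± 149.4 CPM (SD, n = 5) in KO after PHx. The part of plasma cells in the Xbp1 values was not tested.

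At baseline, KO mice 8 and 11 and WT mice 2 and 4 held the 2 highest values of their group for 6 and 5 genes, in both cases including Hspa5, Dnajb9, Sdf2l1, Atf4 and Ddit3. Over all 20 libraries, after each group's mean was taken off, log2(CPM + 1) of Atf4 and Xbp1 had Pearson's r 0.70, and so did that of Hspa5 and Dnajb9. The lowest value among the 45 pairs was -0.52, for Ddit3 and Trib3. Of 9533 genes, those most like Hspa5 by this measure included Manf (0.86), Syvn1 (0.85) and Ngdn (0.82). Those most like Asns included Adsl (0.71), Prpf31 (0.70) and Flywch1 (0.67). These values describe 20 libraries that share scaling and tissue makeup, and carry no test. Manf, an ER-resident trophic factor, and Syvn1, the ubiquitin ligase of ERAD, belong to the pathway lists below.

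Other genes of the pathways were read from 6 lists with no member in common with the 10, and every listed gene was tested. Called genes of ER folding were mostly lower in KO and lower after PHx. The shares of all tested genes called lower were 4.89% (KO against WT at baseline), 8.20% (after PHx), 8.68% (response of WT) and 12.1% (response of KO), and those called higher 11.1%, 16%, 11.4% and 17.5%. The counts of each list stand against these. In KO against WT, 4 of 20 genes of ER folding were lower at baseline and 10 of 20 after PHx, and none was higher. After PHx, 6 of 20 fell and 1 rose in WT, and 10 of 20 fell and 1 rose in KO. Hsp90b1, which encodes the ER Hsp90 called GRP94, had 803.5 ± 141.1 CPM (SD, n = 5) in WT and 370.7 ± 84.5 CPM (SD, n = 5) in KO after PHx, without overlap (log2 -1.12, SE 0.29, edgeR adjusted p 0.0083). Hyou1, an Hsp70-like exchange factor of BiP, fell in KO from 286.1 ± 107.3 to 111.3 ± 44.5 CPM (log2 -1.36, SE 0.33, edgeR adjusted p 0.00567). Creld2, a disulfide isomerase, was lower in KO at baseline (-1.04, SE 0.34, edgeR adjusted p 0.0408), and the oxidase gene Ero1lb fell in WT after PHx by 1.34 (SE 0.29, edgeR adjusted p 0.00343). Exceptions rose: the reductase gene Dnajc10 in WT by 1.20 (SE 0.23, edgeR adjusted p 0.00157) and the oxidase gene Ero1l in KO by 0.63 (SE 0.20, edgeR adjusted p 0.0228). The calls of Hyou1, Ero1lb and Dnajc10 were kept in 16 of 16 other settings and that of Hsp90b1 in 15 of 16, and those of Creld2 in 7 of 15 and of Ero1l in 9 of 16.

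Of 27 genes of ERAD and of translocation into the ER, 6 were lower in KO at baseline and 11 after PHx, and none was higher. Derl2, a channel component of ERAD, was lower in KO without overlap at both stages, at 71.5 ± 6.57 against 122.2 ± 12.7 CPM at baseline (log2 -0.77, SE 0.16, edgeR adjusted p 0.0027) and 38.4 ± 10.2 against 73.5 ± 10.2 CPM after PHx (-0.94, SE 0.16, edgeR adjusted p 0.000354; SD, n = 5). After PHx 6 of 27 genes fell and 0 rose in WT, among them Syvn1 (-1.22, SE 0.28, edgeR adjusted p 0.00586). In KO 7 fell and 2 rose, with Edem1, a mannosidase-like factor of ERAD, falling by 1.23 (SE 0.34, edgeR adjusted p 0.0117) and its relative Edem3 rising by 0.70 (SE 0.24, edgeR adjusted p 0.0338). The call of Edem3 was held in 7 of 16 other settings and the baseline call of Derl2 in 14 of 15, while the other calls named here were kept in 16 of 16.

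Among 13 genes of the stress sensors and of eIF2 control, 3 were lower in KO at baseline, 2 after PHx, and none was higher. Ern1, which encodes IRE1, had 41.0 ± 17.1 CPM in WT and 21.7 ± 13.3 CPM in KO after PHx (log2 -0.92, SE 0.32, edgeR adjusted p 0.0439; SD, n = 5), a call held in 6 of 16 other settings, with adjusted p up to 0.315. In KO it fell after PHx by 1.40 without overlap (SE 0.33, edgeR adjusted p 0.00494), in 16 of 16 other settings as well. Ppp1r15b, a regulatory subunit of the eIF2 phosphatase, was lower in KO at baseline (-0.62, SE 0.15, edgeR adjusted p 0.00916) and fell in WT after PHx (-0.56, SE 0.15, edgeR adjusted p 0.0152), calls held in 13 of 15 and 13 of 16 settings. After PHx 1 gene rose and 2 fell in WT, and 2 rose and 3 fell in KO. Mbtps2, the site-2 protease that releases ATF6, rose in WT by 0.79 (SE 0.26, edgeR adjusted p 0.0411), and Eif2ak4, which encodes GCN2, rose in KO by 0.80 (SE 0.25, edgeR adjusted p 0.0221), held in 8 and 12 of 16 settings.

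Of 27 other genes of ATF4 and amino acid supply, 7 were higher and 1 lower in KO at baseline, and 10 higher and 2 lower after PHx. After PHx 5 rose and 0 fell in WT, and 12 rose and 3 fell in KO. Psat1, the aminotransferase of serine synthesis, was higher in KO at both stages and rose in both genotypes. It had 0.261 ± 0.106 CPM in WT and 1.54 ± 0.498 CPM in KO at baseline (log2 2.54, SE 0.64, edgeR adjusted p 0.01), and 8.13 ± 6.76 and 23.9 ± 17.9 CPM after PHx (log2 1.55, SE 0.53, edgeR adjusted p 0.0372; SD, n = 5). Its rise after PHx was 4.93 in WT (SE 0.66, edgeR adjusted p 8.21e-05) and 3.95 in KO (SE 0.59, edgeR adjusted p 0.000433). The WT baseline libraries held 0.138 to 0.413 CPM of Psat1. Its rise in WT and its baseline difference thus start from few reads. Its difference after PHx was called in 10 of 16 other settings, with adjusted p up to 0.163, and its other calls in every other setting run (15 at baseline, 16 in each response).

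Nupr1, a small chromatin-associated stress protein, had 0.392 to 1.98 CPM in WT and 0.805 to 98.5 CPM (median 12.9) in KO after PHx, so that at least 1 KO library stayed within the WT range (log2 5.21, SE 0.88, edgeR adjusted p 0.000288). Some genes of this list were lower. Atf5, a factor related to ATF4, was lower in KO after PHx (-1.15, SE 0.40, edgeR adjusted p 0.0411), the carrier gene Slc38a2 was lower in KO at baseline (-0.84, SE 0.27, edgeR adjusted p 0.0368), and Gdf15, a secreted stress signal, fell in KO from 143.5 ± 32.8 to 20.4 ± 12.5 CPM without overlap (log2 -2.81, SE 0.54, edgeR adjusted p 0.00169; SD, n = 5). The call of Atf5 was held in 8 of 16 other settings and that of Slc38a2 in 6 of 15, both lost with library totals alone, while those of Nupr1 and Gdf15 were kept in 16 of 16. The median of the list was 0.42 and 0.78 for KO against WT at baseline and after PHx (0.39 after PHx without KO mouse 10), and 0.81 and 1.29 for the responses in WT and KO.

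Of 20 cytosolic tRNA synthetases, several of which ATF4 also activates, 4 were lower in KO at baseline and 9 after PHx, and none was higher. Tars, for threonine, was lower in KO at both stages (-0.84, SE 0.18, edgeR adjusted p 0.00322 at baseline) and fell after PHx in both genotypes (-1.09, SE 0.18, edgeR adjusted p 0.000504 in WT, and -1.02, SE 0.18, edgeR adjusted p 0.00111 in KO). Aars, for alanine, was lower in KO after PHx (-0.87, SE 0.28, edgeR adjusted p 0.0294). After PHx 2 rose and 1 fell in WT, with Vars, for valine, higher by 0.97 (SE 0.31, edgeR adjusted p 0.0318), and 4 rose and 3 fell in KO, with Rars, for arginine, higher by 1.11 (SE 0.28, edgeR adjusted p 0.00802). The call of Aars was held in 9 of 16 other settings and that of Vars in 9 of 16, and the genotype calls of Tars in 14 of 15 and 14 of 16.

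Of 14 cytosolic heat shock genes, 3 were lower in KO at baseline, among them Hsp90aa1 (-1.10, SE 0.34, edgeR adjusted p 0.0349), a call held in 7 of 15 other settings. After PHx 2 were higher and 0 lower. In the response of WT 0 rose and 5 fell, and Hspa1b, an inducible Hsp70, went from 17.6 ± 9.99 to 3.29 ± 1.42 CPM (log2 -2.42, SE 0.56, edgeR adjusted p 0.00578; SD, n = 5). In KO 1 rose and 0 fell, which was Bag3, an Hsp70 cochaperone (1.35, SE 0.33, edgeR adjusted p 0.00617). After PHx Bag3 and Hspb1, a small heat shock protein, were higher in KO than in WT (1.14, edgeR adjusted p 0.0157, and 1.99, SE 0.52, edgeR adjusted p 0.00845), in 14 and 15 of 16 other settings. Both calls were lost with only the libraries compared. Hspa1a and Hspa1b are near-identical copies, so reads that map to both are lost from either count.

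These counts moved with the setting, and so did the shares of all genes. With library totals alone the median of all genes moved up by 0.48 at baseline, 0.38 after PHx, 0.36 in the response of WT and 0.27 in that of KO. Of all genes 24% and 0.771% were then called higher and lower at baseline, 26.6% and 2.02% after PHx, 25.9% and 3.97% in the response of WT, and 27.7% and 6.55% in that of KO. The genes lower in KO at baseline and after PHx then numbered 0 and 2 for ER folding, 0 and 1 for ERAD and translocation, and 0 and 0 for each other list. Those higher numbered 0 and 0 for ER folding, 1 and 1 for ERAD and translocation, 0 and 4 for the sensors, 11 and 12 for ATF4 and amino acid supply, 0 and 1 for the synthetases, and 0 and 4 for heat shock. In the response of WT the genes that rose and fell numbered 2 and 2 for ER folding, 7 and 2 for ERAD and translocation, 3 and 0 for the sensors, 12 and 0 for ATF4 and amino acid supply, 6 and 1 for the synthetases, and 0 and 2 for heat shock. In that of KO they numbered 2 and 6, 2 and 4, 4 and 1, 15 and 2, 6 and 1, and 1 and 0, in the same order. Relative to the median of all genes, the median of ER folding was -0.48 at baseline under either scaling, and -0.63 with TMM and -0.65 with library totals after PHx.

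Fitting only the libraries compared called 21.4% of all genes higher and 18% lower at baseline, and 8.12% and 1.57% after PHx. The genes lower in KO then numbered 14 and 3 for ER folding at baseline and after PHx, 12 and 3 for ERAD and translocation, 3 and 0 for the sensors, 5 and 0 for ATF4 and amino acid supply, 14 and 0 for the synthetases, and 6 and 0 for heat shock. Those higher numbered 8 and 7 for ATF4 and amino acid supply and 0 for the other lists at both stages. In the response of WT, with 13% of all genes higher and 11.1% lower, the genes that rose and fell numbered 2 and 7, 1 and 5, 2 and 3, 4 and 1, 2 and 1, and 0 and 4. In that of KO, with 13.1% and 7.54%, they numbered 0 and 7, 0 and 4, 0 and 1, 12 and 3, 3 and 1, and 1 and 0. With DESeq2 size factors the sensors had 0 genes called in KO against WT after PHx, beside 16.1% of all genes higher and 7.87% lower. The synthetases then had 2 lower at baseline, beside 4.11% of all genes.

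With the mouse as a block, a fit that also leaves out 2 WT libraries, 5.90% of all genes rose and 7.31% fell in WT, and 10.8% and 11.7% in KO. The genes that rose and fell in WT then numbered 1 and 5 for ER folding, 0 and 4 for ERAD and translocation, 0 and 1 for the sensors, 4 and 0 for ATF4 and amino acid supply, 0 and 1 for the synthetases, and 0 and 4 for heat shock. In KO they numbered 0 and 8, 0 and 6, 0 and 3, 11 and 5, 4 and 2, and 1 and 0, in the same order. Of the calls of the named list genes, those of Ppp1r15b, Mbtps2 and Vars in WT and of Eif2ak4, Ero1l, Edem3, Hsp90b1 and Syvn1 in KO were lost in this fit.

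KO mouse 10 moved the counts as well. Without it 19.9% of all genes were higher and 14.4% lower in KO after PHx, and 22.8% rose and 17.6% fell in the response of KO. The genes higher and lower after PHx then numbered 0 and 12 for ER folding, 0 and 14 for ERAD and translocation, 3 and 3 for the sensors, 11 and 3 for ATF4 and amino acid supply, 0 and 10 for the synthetases, and 2 and 0 for heat shock. In the response of KO they numbered 1 and 11, 2 and 10, 3 and 3, 12 and 5, 4 and 5, and 2 and 0, in the same order.

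With 1 library left out, the genes lower in KO after PHx numbered 4 to 12 of 20 for ER folding, 7 to 15 of 27 for ERAD and translocation and 7 to 10 of 20 for the synthetases. Those of ATF4 and amino acid supply that were higher numbered 7 to 11 of 27. At baseline the same counts were 1 to 4, 4 to 7, 1 to 5 and 6 to 8. In these fits 2778 to 5126 of all genes were called in either direction after PHx, and 1644 to 2238 at baseline.

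For the difference between the responses edgeR called 0 genes of the 6 lists in the fit of all libraries. At an unadjusted p under 0.05, where 13.3% of all genes lay, there were 7 of 27 for ATF4 and amino acid supply, 5 of 14 for heat shock, 3 of 27 for ERAD and translocation, 2 of 20 for ER folding, 1 of 13 for the sensors and 0 of 20 for the synthetases. DESeq2 called 1.20% of all genes higher and 1.04% lower, and of the lists Nupr1, Sesn2, Vldlr, Slc7a5, Hspb1 and Ppp1r15b, all higher. Leaving out KO mouse 10, edgeR called 2.76% higher and 1.98% lower, and of the lists Sesn2, Vldlr, Slc7a5, Edem3, Hspb1, Bag3 and Ppp1r15b, all higher. With the mouse as a block it called 0.0134% higher and 0.0334% lower, and of the lists Hspa1b (3.05, edgeR adjusted p 0.0351). These genes are named because they were called, after their values were seen.

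**Figure D4:**
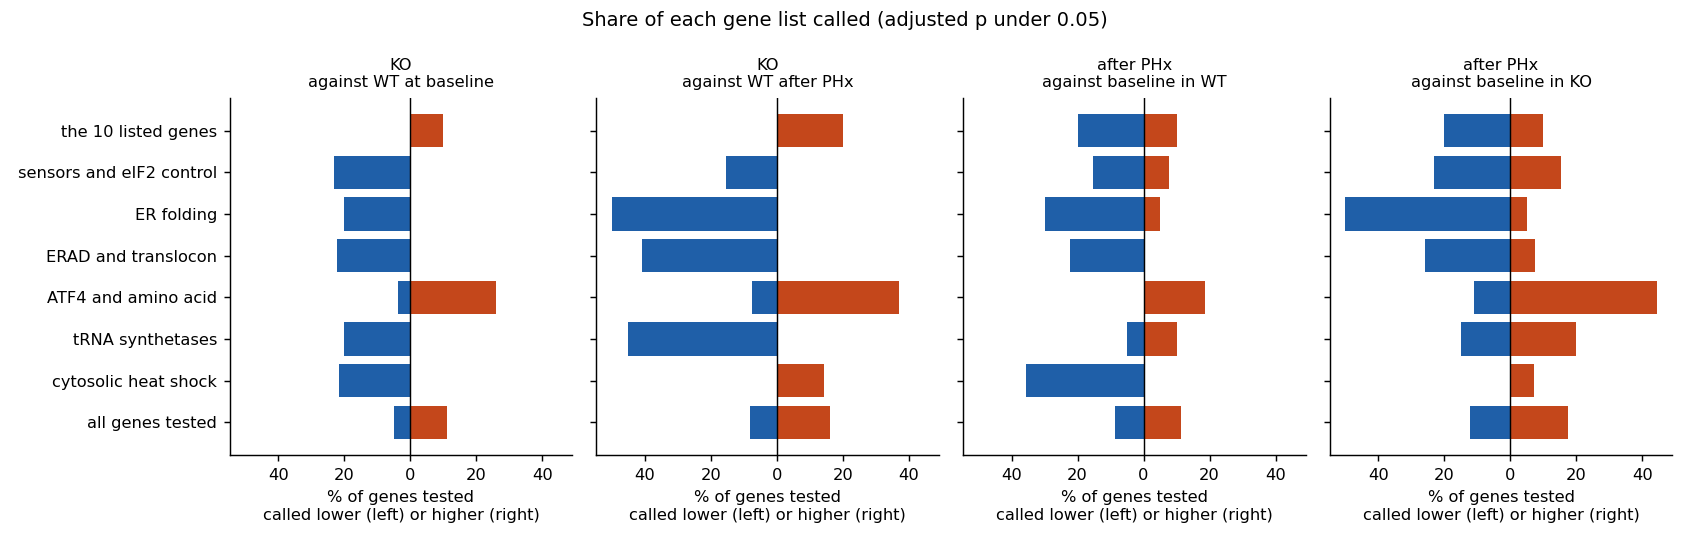
Share of genes called higher (right, orange) and lower (left, blue) in the 4 comparisons of 2 groups, for the 10 genes, the 6 other lists and all 14661 genes tested, with TMM scaling. The ER folding bar reaches 10 of 20 genes on the lower side for KO after PHx in both comparisons, and the ATF4 and amino acid bar lies mostly on the higher side in all 4.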

How the data were processed

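Liver RNA was sequenced in 20 libraries. The deposited files give unnormalised read counts for each Ensembl gene, as the authors made them. Per the design text, libraries came from RNA of integrity above 8 (1000 ng, TruSeq, paired-end NovaSeq 6000), reads were trimmed with fastp 0.20.0 and checked with FastQC 0.11.5, and reads mapped to a single place in mm10 were counted. The submitters' processing notes name Trimmomatic 0.36 instead. Aligner, counting program, strand setting and annotation are not given in the sources used here, so reads of genes overlapping on opposite strands may be mixed. Near-identical copies lose reads, since only reads mapped to a single place were counted. GENCODE M21 and the reference tables gave symbols for 46091 of 46603 identifiers.

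Tests used edgeR 4.0.16 (quasi-likelihood, two-sided, R 4.3.3) with TMM scaling and filterByExpr on the 4 groups, 1 fit over all 20 libraries, 5 contrasts and Benjamini-Hochberg adjustment over 14661 genes. The SE is the size of the log2 fold change divided by the square root of F, and for the difference of the responses the root of the summed squares of both SEs. The script was tested on simulated data. Totals were 21634890 to 30461351 counts per library, and the precision of each value is given by its SE. The p-values of the genotype comparisons measure the spread between these mice. The main fit holds no term for the mouse. Its p-values for the responses and for their difference thus treat the libraries of the same mouse as independent.

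Alternatives were library totals alone, DESeq2 1.42.0 size factors, no filter, only the libraries compared, DESeq2, a time term, each library left out, and the mouse as a block. The labels say that each mouse gave both stages, and for 9 mice both titles carry the number. Residual correlations of the same mouse ran from -0.06 to 0.262, with 3 of 9 over 0.1, and those of different mice from -0.28 to 0.342.

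The members and lists were chosen with earlier results of these data known. Named besides the 10 are, per other list and contrast, those called with the highest and with the lowest log2 fold change among those with a mean of at least 5 CPM, and genes among the 4 most like Hspa5 and the 4 most like Asns, of which some are not reported here. RefSeq promoters were matched by symbol for 10 of 10 genes.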

Additional observations from a re-analysis of the deposited data

Results flagged for a closer look

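In 40 checks, each of 1 of the 10 genes in 1 group of 5 libraries, 4 libraries lay apart from the rest of their group: their gap to the nearest library was over 0.71 of the range of the group, Dixon's critical value for 5, which chance alone passes in about 1 in 20 groups. Atf4 was low in KO mouse 7 at baseline, at 66.6 CPM against 86.7 CPM or more in the others. Ddit3 was high in KO mouse 8 at baseline, at 16.6 CPM, and without that library its fall in KO was not called. Trib3 was high in KO mouse 12 at baseline, at 15.8 CPM, and without that library the baseline difference between genotypes was -0.37 instead of 0.19. Sdf2l1 was high in the WT library at 30 h after PHx, at 79.5 CPM against 35.3 CPM or less, and without it the fall in WT was called.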

How the results depend on the processing

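Of 143 repeats of called results of the 10 genes, 122 kept direction and call and 21 lost the call. Of 747 repeats of results not called, 695 stayed so, 20 became called and 32 changed sign. The cause of these changes was not tested.

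Library totals alone gave 3634 genes called at baseline (2348 in the report's fit) and 5 of the 10 genes called in the response of KO (3). The log2 fold change of Xbp1 then became 0.16 at baseline and 0.14 in the response of WT, and that of Hspa5 in the difference of the responses -0.027. The share of calls that were higher rose from 69.5% to 96.9% at baseline, from 66.1% to 92.9% after PHx, from 56.8% to 86.7% in the response of WT and from 59.1% to 80.9% in that of KO. In the difference of the responses it went from 42.1% to 15.8%. Fitting only the libraries compared gave 5242 genes and 3 members at baseline, 1345 genes (3544) and 1 member (2) after PHx, and 2878 genes (4331) in the response of KO. Atf4 after PHx was -0.01 with no filter and -0.14 with a time term. For the difference of the responses 57 genes were called, against 90 with a time term and 359 with DESeq2.

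With the mouse as a block, which leaves out 2 WT libraries, 7 genes were called for the difference of the responses, Trib3 in the response of WT was 0.32 and Asns in the difference 0.19. In this fit the calls of Hspa5, Sdf2l1 and Asns in WT and of Ddit3 in KO changed, and no other call of a member. In WT the pairing and the left-out libraries cannot be told apart: leaving out only the WT library at 30 h gave -1.55 for Sdf2l1 (called) and -0.71 for Hspa5 (not called).

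With 1 library left out, members called ranged from 1 to 5 after PHx, from 2 to 4 in the response of WT and from 2 to 5 in that of KO. Of all genes, 2778 to 5126, 2191 to 3076 and 2962 to 6037 were called in the same fits. Genes called for the difference ranged from 22 to 708, the highest without KO mouse 10. Log2 fold changes that changed sign ranged from -0.30 to 0.57 (Ddit3) and -0.37 to 0.83 (Trib3) at baseline, -0.28 to 0.19 (Atf4) after PHx, -0.78 to 0.21 (Trib3) in the response of WT, and -0.67 to 0.004 (Herpud1) and -0.038 to 0.33 (Dnajb9) in that of KO. For the difference of the responses they ranged from -0.11 to 0.23 (Hspa5), -0.35 to 0.22 (Asns) and -0.75 to 0.046 (Sdf2l1). How far depth limits these values was not tested.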
